A study of Mus musculus with 20 samples.

Results

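The genes described here encode the proteins of the cytosolic ribosome. They were chosen by name: a gene symbol of the forms used for ribosomal proteins of the large (Rpl) or small (Rps) subunit, or Rpsa, Rplp0, Rplp1 or Rplp2, on a probe set annotated with that symbol alone, without pseudogenes and without the Rps6k kinases. The rule found 48 of the 18193 genes measured, 26 of the 60S and 22 of the 40S subunit, on 104 probe sets and on 16 chromosomes. RefSeq lists 84 protein-coding mouse genes with such names. The other 36, among them Rpl3, Rpl5 and Rpl24, had no probe set of a single symbol and were not members. Levels of 47 members were tested, and Rps16 was not, since its probe set gave signals between 0.805 and 23.2.

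The samples were whole wild-type C57BL/6 embryos, specific-pathogen free and of mixed sex, with the amnion left out, at 8 stages, daily from embryonic day E7.5 to E10.5 and then every other day from E12.5 to E18.5. No group was treated. Each of the 20 samples was total RNA of several embryos, pooled and measured on its own Affymetrix Mouse Genome 430 2.0 array, with 3 arrays for each stage up to E10.5 and 2 for each later stage. The submitters call these pools biological replicates. The spread behind each p-value is that between pools, and with so few arrays the precision is limited. In RNA of whole embryos, fewer cells of a type and less RNA per cell cannot be told apart.

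A cytosolic ribosome joins a small subunit, which binds the messenger RNA and decodes it, to a large subunit, which forms the peptide bonds. Its proteins are made by most cells in near-equal amounts and are assembled with ribosomal RNA in the nucleolus. Their messenger RNAs are among the most abundant of growing cells and typically begin with a C followed by a run of pyrimidines, the 5′ terminal oligopyrimidine (TOP) motif, through which growth signals control their translation. A few members are extra gene copies with narrower expression: Rpl3l, known from heart and skeletal muscle, Rpl39l, known from male germ cells, and Rpl22l1, Rps27l and Rpl7l1, relatives of Rpl22, Rps27 and Rpl7.

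The start sites of members and of these extra copies are shown to let the pyrimidine run be seen. In each sequence of 60 bases, from RefSeq on GRCm38.p6, 40 bases lie before the annotated start and 20 from it on, in the direction of transcription. Capitals mark the longest run of C and T that opens with C, has at least 7 bases and lies within 20 bases of the start.

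Rplp2: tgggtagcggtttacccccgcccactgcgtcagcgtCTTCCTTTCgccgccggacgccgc
Rps6: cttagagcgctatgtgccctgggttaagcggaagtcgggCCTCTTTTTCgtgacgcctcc
Rpl38: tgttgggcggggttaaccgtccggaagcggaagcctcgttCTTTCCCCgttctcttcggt
Rpl7a: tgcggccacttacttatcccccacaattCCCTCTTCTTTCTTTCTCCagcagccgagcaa
Rpl22l1: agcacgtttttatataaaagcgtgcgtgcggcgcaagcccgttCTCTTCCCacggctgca
Rps27: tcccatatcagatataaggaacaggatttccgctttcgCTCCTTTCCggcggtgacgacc
Rps27l: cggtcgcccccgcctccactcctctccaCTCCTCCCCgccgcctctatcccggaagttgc
Rpl39l: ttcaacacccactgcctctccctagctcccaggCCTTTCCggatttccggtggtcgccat
Rpl7l1: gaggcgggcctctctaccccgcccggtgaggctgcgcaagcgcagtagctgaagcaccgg
Rpl3l: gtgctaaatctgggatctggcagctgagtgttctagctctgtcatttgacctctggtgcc

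Rplp2 lies at chr7:141447611-141447670 on the plus strand, Rps6 at chr4:86857348-86857407 on the minus strand, Rpl38 at chr11:114668540-114668599 on the plus strand and Rpl7a at chr2:26910767-26910826 on the plus strand. Rpl22l1 lies at chr3:28805468-28805527 on the plus strand, Rps27 at chr3:90213629-90213688 on the minus strand and its relative Rps27l at chr9:66946046-66946105 on the plus strand. Rpl39l lies at chr16:10170188-10170247 on the plus strand, Rpl7l1 at chr17:46782637-46782696 on the minus strand and Rpl3l at chr17:24727786-24727845 on the plus strand. The windows of Rpl7l1 and Rpl3l held no such run. Of the 51 start windows matched to 43 members, 24 held a run (47.1%), against 18.7% of all 32851 windows. The letters CCGGAAG, the core bound by ETS factors, stood on either strand within the 300 bases from 250 before to 50 after the start in 41.2% of the members' windows and in 8.9% of all windows. A match of letters is a description of the sequence and not a shown site.

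Probe sets gave the members 2 very different signal ranges. A gene was represented by its brightest probe set of a single symbol, and values are MAS5 signals, or differences of log2(signal + 25.9), a scale that understates changes of dim genes. For 36 members the mean log2 value over the 20 arrays was at least 13, a limit set after the values were seen. The other 12 were dimmer, 11 of them tested. These were Rpl3l, Rpl39l and Rpl7l1 and the single-symbol probe sets of Rpl12, Rpl14, Rpl27a, Rpl37, Rpl39, Rps6, Rps16, Rps25 and Rps27. The dim probe sets of core genes are taken up apart from the high-signal members, because brighter probe sets of the same genes gave other values. Probe sets were ranked by brightness, but their levels were not compared as amounts of RNA.

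The arrays themselves fall into 2 sets. Median array signals were 67.2 to 91.1 from E7.5 to E10.5 and 156 to 178 from E12.5 to E18.5, its 99th percentile 12900 to 14900 against 9200 to 11300, and the signal of a spiked dap control 50.8 to 119 against 1810 to 2570. No stage was on arrays of both sets, so in the step from E10.5 to E12.5 array set and stage cannot be told apart. No comparison inside the early or the late stages crosses the sets.

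The high-signal ribosomal proteins stayed within a narrow band inside each set of stages. The median of these 36 genes was 38530, 34031 and 36670 on the 3 arrays of E7.5, then 39301, 35656 and 36430 at E8.5, 31854, 39991 and 37030 at E9.5, and 29915, 32840 and 37239 at E10.5. All 12 of these arrays lie above all 8 later ones, and the stages within the 12 overlap. The later medians were 20403 and 21651 at E12.5, 18164 and 25888 at E14.5, 20532 and 27454 at E16.5, and 22878 and 23195 at E18.5.

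**Figure D1:**
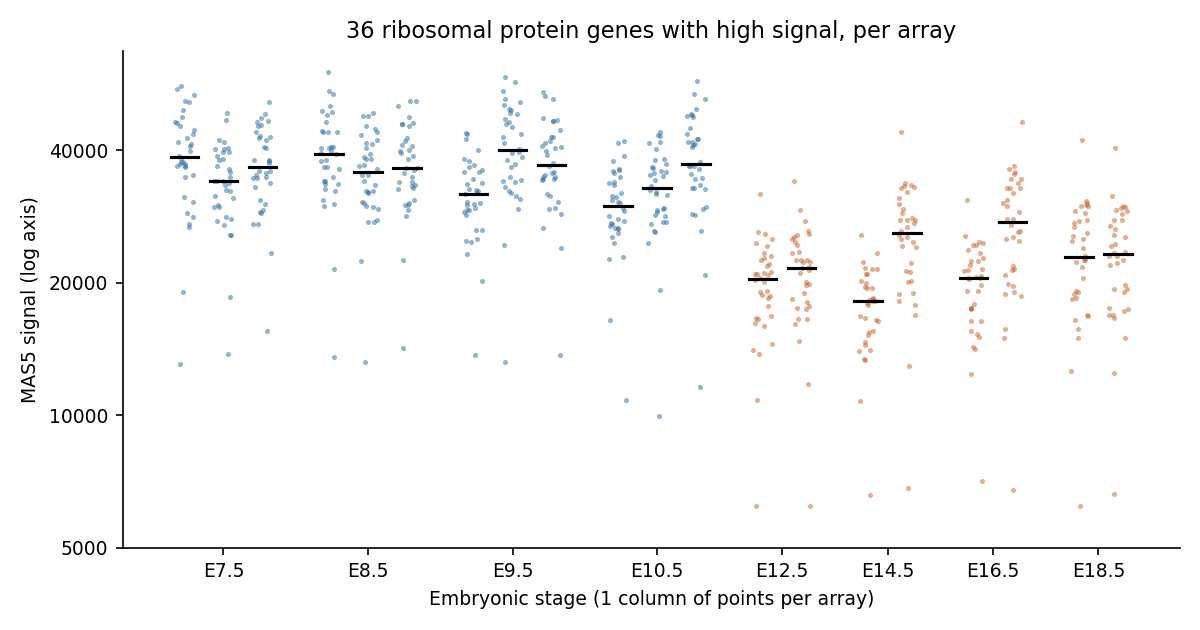
MAS5 signal (log axis) of the 36 high-signal ribosomal protein genes, a column of points per array and a bar at its median, for 8 stages. The columns of E7.5 to E10.5 have medians from 29915 to 39991, those of E12.5 to E18.5 from 18164 to 27454, and the 2 arrays of E14.5 and of E16.5 are offset from each other.

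Replicate arrays differed by moving these genes together. At E14.5, all 36 were higher on the second array, by a median of 0.51 on the log2 scale, and at E16.5, 35 of 36 were higher on the second array, by 0.42. The gap was 0.33 between the highest and lowest array of E9.5, 0.32 at E10.5, 0.18 at E7.5, 0.14 at E8.5, 0.09 at E12.5 and 0.02 at E18.5. Counts of these genes above or below 0 are therefore not counts of independent changes.

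From E7.5 to E10.5, ribosomal proteins as a whole changed little. The median change of the 36 high-signal members was -0.13, between -0.39 and 0.04, with 34 below 0 (43.6% of all genes) and a median SE of 0.14. Of these, Rps27l fell and no other passed the test at an adjusted p below 0.05 (limma, Benjamini-Hochberg over the 14044 genes tested). Over all 47 tested members, 1 rose and 7 fell, against 34.3% of all genes that rose and 23.8% that fell. At least 2-fold, no member rose and 2 fell (16% and 7.49% of all genes). The count depends on the scaling: 11 fell after quantile normalization, with a members' median of -0.05, and 21 after scaling by the 75th percentile, with a median of -0.33 where that of all genes was -0.06. No share of all genes that fell is given for these other scalings. The median change of all genes was 0.11 with an SD of 1.09, while the high-signal members had an SD of 0.08 around their own median. The median of bright genes in general sat near that of the members: 291 others with a mean of at least 13 had a median of -0.127 and quartiles of -0.320 and 0.085. Calls were more frequent among these 291, of which 34.7% fell and 16.2% rose. The 60S members (median -0.16) and the 40S members (median -0.12) lay side by side.

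Single core proteins show the same narrow band. Rplp0, the base of the ribosomal stalk and a frequent reference gene, gave 46180, 38739 and 43085 at E7.5 and 31488, 35161 and 42326 at E10.5, so the arrays of these stages overlap. Rpl38, a large subunit protein whose loss in mice alters axial patterning, gave 46428, 40195 and 45282 at E7.5 and 37811, 41741 and 48389 at E10.5. Rps19, a small subunit protein mutated in Diamond-Blackfan anaemia, gave 31309, 25665 and 27252 at E7.5 and 26001, 27510 and 29461 at E10.5. All 3 genes had overlapping arrays at E7.5 and E10.5 and did not pass the test. Rpl11, which binds Mdm2 when ribosome assembly is disturbed, averaged 28034 ± 879 at E7.5 and 25295 ± 2970 at E10.5 (SD, n = 3 each).

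Each step within these stages moved few members. From E7.5 to E8.5, Rps6 rose and 2 members fell, Rpl39l and Rpl14 (21.6% and 16.4% of all genes). From E8.5 to E9.5 no member rose and 2 fell, Rpl12 and Rpl39l (9.55% and 6.89% of all genes). From E9.5 to E10.5 no member rose and 4 fell, Rpl12, Rpl14, Rps25 and Rps27l (12% and 6.84% of all genes). A moderated F test within E7.5 to E10.5 called 8 of 47 members, 1 high-signal and 7 of the 11 dim ones, against 60.9% of all genes.

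From E12.5 to E18.5, the high-signal members again moved little. Their median change was 0.16, between -0.07 and 0.39, with 33 of 36 above 0 and a median SE of 0.17, and none passed the test. Of all genes, 55.1% were below 0. The 291 other genes with a mean of at least 13 had a median of -0.127, with 34.7% that fell and 22.3% that rose. Over all 47 tested members, 2 rose and 4 fell, against 24% and 29.2% of all genes. At least 2-fold, 2 rose and none fell (15.2% and 6.44% of all genes). After quantile normalization 15 members fell, a count without a share of all genes beside it. The median of the members turned from 0.15 to -0.12. Both that rose are extra gene copies, Rpl39l and Rpl3l, the latter kept by the filter through its E18.5 arrays alone. Rplp0 was 22045 and 24404 at E12.5 and 28799 and 29161 at E18.5, while E14.5 gave 20905 and 33220. Its 2 E14.5 arrays thus lie below and above all 4 of those arrays.

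Steps within the later stages gave few calls. From E12.5 to E14.5, Rpl39l rose and no member fell (6.54% and 3.88% of all genes). From E14.5 to E16.5 none rose or fell (6.04% and 4.23%), though the members' median was 0.11 and became -0.12 without the first E14.5 array. From E16.5 to E18.5, Rpl3l was called higher and Rpl7l1, Rpl14 and Rps25 fell (7.33% and 8.5%). None of these 3 falls was called without the first E16.5 array or without the first E18.5 array. The F test within E12.5 to E18.5 called 6 members, all dim, against 48.6% of all genes. Among the 6 is Rpl3l, kept by the filter through its E18.5 arrays alone, so its call is no support.

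Between E10.5 and E12.5, 35 of the 47 members fell and 4 rose, against 21% and 26.5% of all genes. At least 2-fold, 3 fell and 3 rose (2.02% and 10.6% of all genes). The 36 high-signal members were all below 0 (42.2% of all genes), with a median of -0.75 and a range from -1.12 to -0.32, and 31 of them fell. These are the brightest probe sets: of 18 genes with several high-signal ones, the signs agreed within the gene for 14, with a median spread of 0.50, and further probe sets of Rpl7 and Rps9 were at 1.15 and 0.31. The largest falls were those of Rpl27a (-1.19), Rpl41 (-1.12), Rpl27 (-1.01), Rps2 (-0.99) and Rps19 (-0.95). The value of Rpl27a is that of a dim probe set, and the brighter shared one was at -0.55. Rps19 was 26001 or more on the E10.5 arrays and 14779 or less on those of E12.5. The 4 that rose were dim: Rpl39l (1.89), Rpl39 (1.42), Rpl12 (1.29) and Rps27 (0.91). Rpl39 was not called without replicate 1 or 2 of E10.5 or replicate 2 of E12.5 (1.08, 1.51 and 1.01), nor Rps27 without replicate 2 or 3 of E10.5 or replicate 1 of E12.5 (0.90, 0.80 and 0.53). Brighter probe sets of Rpl39, Rpl12 and Rps27, annotated with further symbols, were at -0.74, -0.70 and -0.83. Rps18, Rps20, Rps24, Rps29 and Rps4x, all of the small subunit, were the high-signal members that did not pass, with changes from -0.38 to -0.32.

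Other bright genes moved the same way across that step. Among 291 genes that are no members and also had a mean of at least 13, the median change was -0.58, 74.6% fell and 2.41% rose. Among genes under 8 the median was 0.45 and 2.08% fell. After quantile normalization the members' median was -0.04, with 12 that rose and 16 that fell, while the median of all genes moved from 0.12 to -0.11. No share of all genes that rose or fell is given for that setting. The part of the array sets in this fall was not tested apart from the stage.

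**Figure D2:**
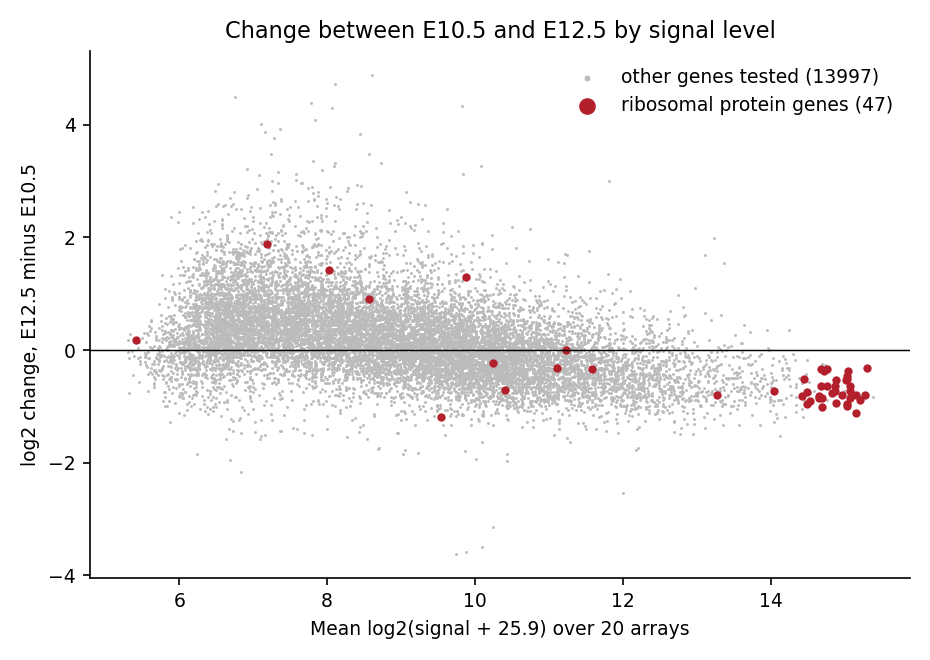
Change from E10.5 to E12.5 (log2) against mean log2(signal + 25.9) over 20 arrays, grey for the other genes tested and red for 47 ribosomal protein genes. The cloud slopes down with level, and the bright members lie at its right end between -1.12 and -0.32, among other genes of like level.

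Over all 8 stages the F test called 45 of 47 members (91% of all genes), a test that crosses the array sets. The high-signal members had a median range of stage means of 0.94 over the 8 stages, 0.16 within the early set and 0.21 within the late one. Their highest stage was E8.5 for 21, E7.5 for 9 and E9.5 for 6, and the lowest was E12.5 for 30. Rps29, a zinc-binding small subunit protein, had the smallest range over the stages (0.45) and Rpl41, the smallest protein of the ribosome, the largest of the high-signal members (1.29).

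Rpl3l, the muscle copy of Rpl3, gave a signal above the 25th percentile of its array at E18.5 alone. Its signal was 28.5 or less on all 18 arrays before E18.5, below the 25th percentile of each of these arrays, and 279 and 386 on the 2 arrays of E18.5. No earlier array comes near the E18.5 pair. The gene passed the filter on low signals through these 2 arrays, where it is high, so its calls at E18.5 are a description and no size is given for a change from signals this low.

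Markers of striated muscle rose over the same span. The summed signal of a list of 16 muscle genes was 27880 to 28220 at E12.5, 131300 to 154500 at E16.5 and 245900 to 262500 at E18.5, and 14 of the 15 tested rose from E12.5 to E18.5 with a median of 3.72 (24% of all genes rose). The sum at E14.5 was 66240 to 75690, where Rpl3l gave 28.5 and 6.67. The part of muscle mass in the rise of Rpl3l was not tested.

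Rpl39l, a copy of Rpl39 that lines the peptide exit tunnel and is known from the testis, fell and then rose. Its signals were 123, 164 and 142 at E7.5, 48.3, 42.4 and 70.5 at E8.5, 24.8, 30.5 and 23.7 at E9.5 and 25.6, 24.4 and 22.5 at E10.5. They were 178 and 142 at E12.5, 392 and 387 at E14.5, 453 and 369 at E16.5, and 577 and 614 at E18.5. The E7.5 arrays lie above all others of the early set, and the E18.5 arrays above all 18 others.

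The E10.5 signals lie near the 25th percentiles of their arrays (22.7, 28.4 and 26.8), so log2 differences from E10.5 are values on the fitted scale and not bounds. The fall from E7.5 to E10.5 was -1.75 ± 0.19 on that scale (adjusted p = 9.9e-08), and the rise from E12.5 to E18.5 1.75 ± 0.23 (adjusted p = 2.5e-06). From E12.5 to E14.5 it rose by 1.17 ± 0.23 (adjusted p = 0.002). From E10.5 to E12.5, across the array sets and from those low signals, it rose by 1.89 ± 0.21 (adjusted p = 6.5e-07), and it rose there under quantile normalization too.

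A list of 10 germ cell genes, 9 measured, summed to 2787 to 4264 at E7.5 and to 443.3 or less on every later array. Of its 4 tested genes, 3 fell from E7.5 to E10.5 and none passed from E12.5 to E18.5. The list holds Pou5f1, which the early epiblast also expresses. From E7.5 to E10.5, 6 of 6 tested trophoblast genes and 10 of 11 visceral endoderm genes fell as well (23.8% of all genes). The part of these cell types in the changes of Rpl39l was not tested.

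Rpl7l1, a relative of Rpl7 that takes part in making the large subunit, declined through both sets of stages. Its signals were 4249, 4499 and 4292 at E7.5 and 3392, 3243 and 3478 at E10.5, with no overlap. They were 2789 and 2566 at E12.5, 2380 and 2388 at E14.5, 2140 and 2067 at E16.5 and 1617 and 1690 at E18.5, each pair below the one before. It fell by 0.36 ± 0.07 from E7.5 to E10.5 (adjusted p = 2e-04) and by 0.69 ± 0.09 from E12.5 to E18.5 (adjusted p = 1.8e-06).

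All 3 probe sets of Rpl7l1 were below 0 in both comparisons, at -0.55, -0.33 and -0.36 in the first and -0.24, -0.24 and -0.69 in the second. The stepwise late decline is that of the brightest one, with a mean log2 of 11.59. Another, at 11.58, averaged 2106 at E12.5, 1816 at E14.5, 1806 at E16.5 and 1784 at E18.5, and so hardly moved after E14.5. Rpl7 itself, a core protein of the large subunit, did not pass in either.

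Rps27l, a p53-responsive copy of Rps27, was the high-signal member that fell from E7.5 to E10.5, with its drop at E10.5. Its signals were 13107, 13803 and 15575 at E7.5 and 13739, 13181 and 13712 at E9.5, then 10823, 9963 and 11570 at E10.5, below all 9 earlier arrays. It fell from E9.5 to E10.5 by 0.33 ± 0.08 (adjusted p = 0.0048), and from E7.5 to E10.5 by 0.39 ± 0.08 (adjusted p = 0.00021). Its 3 probe sets gave -0.34, -0.50 and -0.39 from E7.5 to E10.5. From E12.5 on, its 8 arrays lay between 6233 and 7076, and E18.5 against E12.5 gave 0.04 ± 0.10, which did not pass.

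Rpl22l1, the copy of Rpl22 that stands in for it when Rpl22 is lost, averaged 20297 ± 2617 at E7.5 and 18815 ± 2206 at E10.5 (SD, n = 3), then 11318 ± 655 at E12.5 and 12540 ± 117 at E18.5 (SD, n = 2). It passed neither test within an array set.

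**Figure D3:**
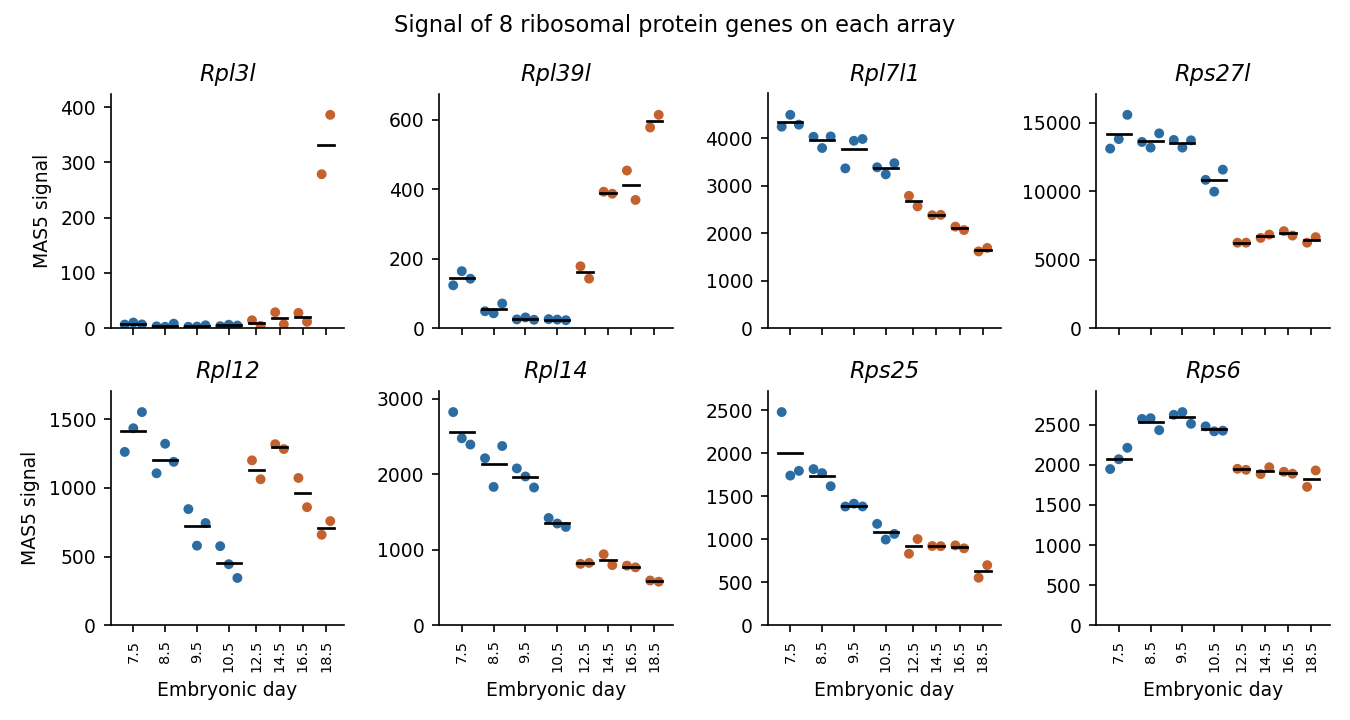
MAS5 signal on each array of 8 ribosomal protein genes against embryonic day, with a bar at the stage mean, blue for E7.5 to E10.5 and orange for E12.5 to E18.5. Rpl3l is at 28.5 or less until it reaches 279 and 386 at E18.5, Rpl39l dips to 22.5 at E10.5 and reaches 614 at E18.5, and Rpl7l1 declines from 4499 to 1617.

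The remaining calls within the array sets came from dim probe sets of core genes. Rpl12, whose protein sits at the base of the stalk, gave 1262, 1435 and 1552 at E7.5 and 576, 445 and 345 at E10.5, a fall of 1.61 ± 0.15 on the log2 scale (adjusted p = 1.8e-08). Rpl14, of the large subunit, fell by 0.90 ± 0.10 in the same comparison (adjusted p = 8.4e-08) and Rps25, which some viral messages need for internal initiation, by 0.86 ± 0.12 (adjusted p = 2.7e-06). Rps27 fell by 0.76 ± 0.29 (adjusted p = 0.029), a call that was lost without any one of the 3 E7.5 arrays or without replicate 2 or replicate 3 of E10.5. Rps6, the small subunit protein phosphorylated by S6 kinases, rose by 0.23 ± 0.07 (adjusted p = 0.0059), and under scaling by the 75th percentile it was at 0.04 and not called. From E12.5 to E18.5, Rpl12 (-0.66 ± 0.19, adjusted p = 0.0058), Rps25 (-0.54 ± 0.14, adjusted p = 0.0039) and Rpl14 (-0.47 ± 0.12, adjusted p = 0.0021) fell again. Rpl12 was not called without replicate 1 of E12.5 or of E18.5 (-0.57 and -0.56), nor Rps25 without replicate 2 of E12.5 or replicate 1 of E18.5 (-0.41 and -0.37).

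These calls did not hold on the brighter probe sets of the same genes. For 9 members, the array also carries a high-signal probe set annotated with the gene and with further symbols, mostly pseudogenes. From E7.5 to E10.5 those shared probe sets gave changes from -0.28 to 0.01 with a median of -0.12, against -1.61 to 0.23 with a median of -0.37 for the single-symbol ones. For Rpl12 the pair was -1.61 and -0.15, for Rps25 -0.86 and -0.02, and for Rps6 0.23 and -0.11. For Rpl14 it was -0.90 and -0.28, so the direction of its fall was kept at a smaller size. From E12.5 to E18.5 the medians were -0.37 for the single-symbol and 0.22 for the shared probe sets. With the shared probe sets allowed, none of Rpl12, Rpl14, Rps25, Rps27 and Rps6 was called from E7.5 to E10.5.

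The shared probe sets sat where the high-signal members did. For 24 ribosomal protein genes measured by shared probe sets alone, the median changes were -0.11 from E7.5 to E10.5, -0.78 from E10.5 to E12.5 and 0.18 from E12.5 to E18.5. Which probe set reports the mature messenger RNA was not tested.

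**Figure D4:**
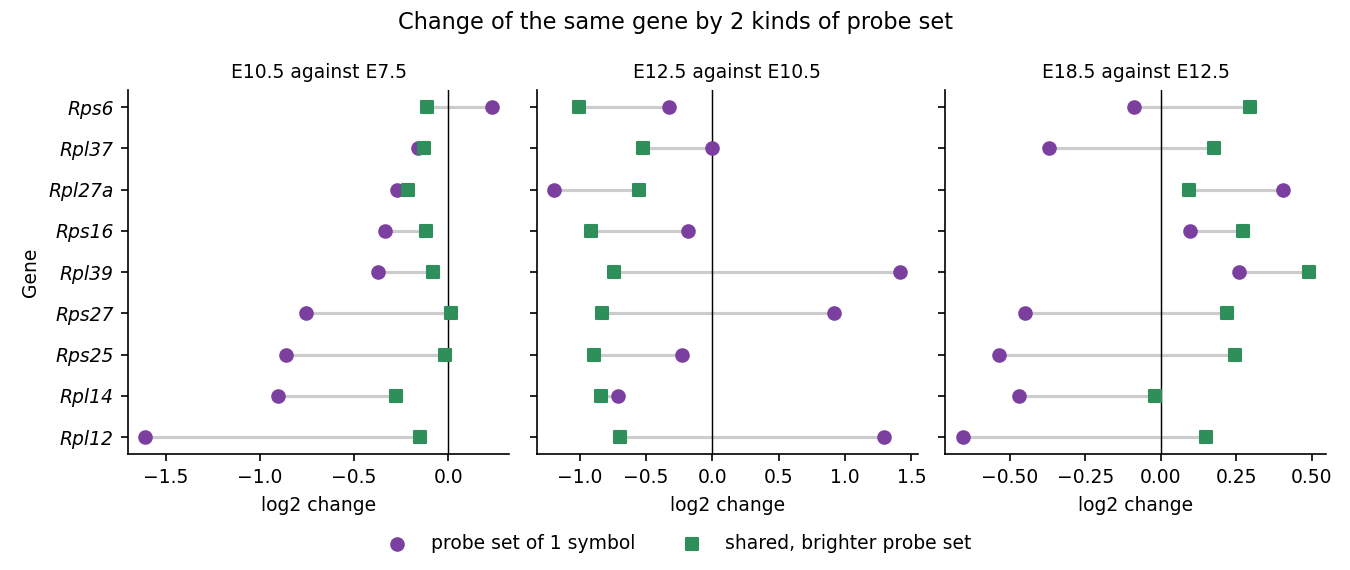
Change (log2) of 9 ribosomal protein genes in 3 comparisons, by the dim probe set of a single symbol (circles) and the brighter one shared with other symbols (squares), joined per gene. Rpl12 lies at -1.61 and -0.15 in E10.5 against E7.5, and at 1.29 and -0.70 in E12.5 against E10.5.

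Dim extra probe sets of the high-signal members mostly moved in the same direction as each other. A mean log2 value under 11 was found for 17 single-symbol probe sets of 11 such genes. No filter on low signals was applied to them, and a probe set of Rps4x among them had stage means from 5.61 to 14.7. From E7.5 to E10.5, 14 of the 17 were below 0 with a median of -0.93. From E10.5 to E12.5, 13 were above 0 with a median of 0.74, and from E12.5 to E18.5, 15 were below 0 with a median of -0.53. Of all genes tested, which had passed the filter, 43.6%, 42.2% and 55.1% were below 0 in these comparisons. The step from E10.5 to E12.5 crosses the array sets, and there other genes under 8 had a median of 0.45 and those from 8 to 10 one of 0.15. The dim single-symbol probe sets of the 9 members described before had a median of -0.18 in that step, unlike the 17. An example among the 17 is Rps24, of the small subunit. A dim probe set of this gene averaged 825.3 at E7.5 and 174.6 at E10.5, a change of -2.08, while its brightest one changed by -0.02. Another is Rpl41, where a dim probe set changed by -1.09 and the brightest by 0.03. For 18 genes with several high-signal probe sets, the signs agreed within the gene for 14 from E7.5 to E10.5 (median spread 0.08) and for 15 from E12.5 to E18.5 (0.15), beside the 14 and 0.50 given for E10.5 to E12.5.

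Genes that build ribosomes fell widely within both array sets. Of 32 tested genes of ribosome assembly, none rose and 31 fell from E7.5 to E10.5, with a median of -0.90, and 26 fell from E12.5 to E18.5, with a median of -0.57. Of all genes, 23.8% fell and 34.3% rose in the first comparison, and 29.2% fell and 24% rose in the second. Tsr1, which matures the small subunit, averaged 6246 ± 224 at E7.5 and 2293 ± 135 at E10.5 (SD, n = 3), a fall of 1.44 ± 0.08 (log2, SE, adjusted p = 2.3e-12). Nolc1 (-1.29), Ddx21 (-1.22) and Gnl3 (-1.21), nucleolar proteins, followed. Nop56, a core protein of the small nucleolar RNA particles that guide methylation, averaged 9986 ± 702 and 5114 ± 193 at these stages (SD, n = 3), then 2697 ± 238 at E12.5 and 1422 ± 57.4 at E18.5 (SD, n = 2).

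The RNA polymerase I list, the machinery that makes ribosomal RNA, had 8 of 14 tested genes that fell and none that rose from E7.5 to E10.5, with a median of -0.43. Taf1d (-2.24), Polr1b (-1.02) and Polr1e (-0.98) fell most. From E12.5 to E18.5, 10 of the 14 fell with a median of -0.55 (23.8% and 29.2% of all genes fell in these comparisons), led by Rrn3 (-0.84), the initiation factor of this polymerase.

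The initiation factors, which load messages onto the ribosome, fell in part. Of 19 initiation factors, 13 fell from E7.5 to E10.5 with a median of -0.32, led by Eif2s2 (-0.58), and 9 fell from E12.5 to E18.5 with a median of -0.20, led by Eif5b (-0.85). Of 12 other genes whose messages carry the TOP motif, 4 fell in the first comparison (median -0.17) and 1, Nap1l1 (-0.88), in the second (median -0.12), against 23.8% and 29.2% of all genes for both lists. Brighter genes fell more often. Of genes that are no members, 34.3% with a mean log2 of 10 to 12 fell in the first comparison and 48.4% in the second. From 12 to 13 it was 37.8% and 49%. The lists were not matched to genes of like level. Eef1a1, the elongation factor that brings transfer RNA to the ribosome, averaged 52960 ± 8710 at E7.5 and 49690 ± 8320 at E10.5 (SD, n = 3). Its change of -0.09 ± 0.20 did not pass. Fau, the gene of a fusion protein that yields a small subunit protein and the one tested gene of a list of 5 further ribosomal proteins, changed by 0.07 and 0.06 and did not pass.

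Proteins of the mitochondrial ribosome, which share the name but serve another organelle, had 5 of 76 that rose and 43 that fell from E7.5 to E10.5 (median -0.32), and 15 that rose and 8 that fell from E12.5 to E18.5 (median 0.04). Of all genes, 34.3% rose and 23.8% fell, then 24% and 29.2%. From E10.5 to E12.5, across the array sets, 71 of the 76 mitochondrial, 30 of the 32 assembly, 10 of the 12 TOP, 14 of the 19 initiation and 7 of the 14 polymerase I genes fell, against 21% of all genes. Of genes that are no members, 45% with a mean log2 of 10 to 12 fell there, 67.5% from 12 to 13 and 74.6% from 13 up. In the same step 2 initiation and 2 polymerase I genes rose, and none of the other 3 lists, against 26.5% of all genes.

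**Figure D5:**
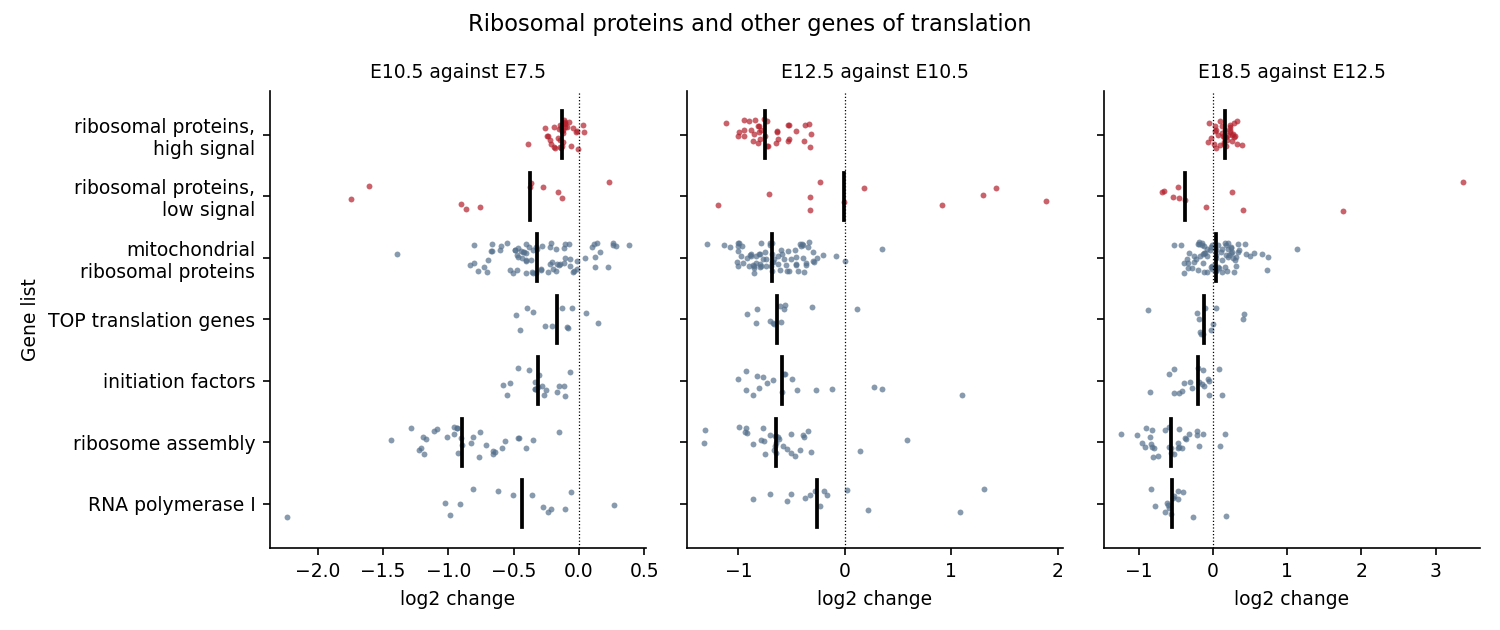
Change (log2) of the members of 7 gene lists in 3 comparisons, a point per gene and a bar at the median. In E10.5 against E7.5 the high-signal ribosomal proteins lie around -0.13 and the assembly genes around -0.90, and in E18.5 against E12.5 around 0.16 and -0.57.

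Summed signals of tissue markers changed over the same stages. A list of 12 red cell genes, 10 measured, summed to 10970 to 16000 at E7.5 and 118600 to 168200 at E10.5, and then to 81240 to 90870 at E12.5 and 9503 to 10340 at E18.5. Trophoblast genes, 7 measured, summed to 8131 to 9683 at E7.5 and 673.9 to 855.4 at E10.5. Visceral endoderm genes, 11 measured and largely shared with fetal liver, summed to 118100 to 135600 at E7.5, 11180 to 12620 at E10.5 and 115300 to 118300 at E18.5. Decidua genes, 8 measured, summed to 3043 to 3473 at E7.5, 2885 to 3048 at E10.5 and 16350 to 17960 at E18.5. Of these 8 genes, 2 rose and 4 fell from E12.5 to E18.5, with a median of -0.64. Of all genes, 24% rose and 29.2% fell there, so the higher decidua sum is not a rise of the list as a whole. The part of these tissues in the changes of the ribosomal proteins was not tested.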

How the data were processed

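The deposited values are a linear intensity, a MAS5 signal per probe set computed by the authors, per the submitters' processing notes. The MAS5 version and settings are not given in the sources used here. On all 20 arrays the mean without the lowest and highest 2% of values was 500.0. Of 45101 probe sets, 34945 had a single gene symbol and were used, 932 had several, 9211 had none and 64 were controls (13 of them with a single symbol). Entrez identifiers of 34741 matched RefSeq. Arrays give no count depth.

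The brightest probe set by mean represented a gene. Values were log2(signal + 25.9), the pseudocount being the median 25th percentile of an array. A gene above the array median on at least 2 arrays was tested, which kept 14044 of 18193. All arrays entered 1 model with a mean per stage (limma 3.58.1, R 4.3.3, lmFit and eBayes with trend, 12 residual degrees of freedom), two-sided, with Benjamini-Hochberg adjustment per comparison. "Rose" and "fell" mean an adjusted p below 0.05, with no minimum fold. Gene lists were written from general knowledge. Members and lists were chosen with earlier results of these data known. The genes named were the extra copies and their partners, proteins of known special role, the largest called changes, the widest ranges, and up to 4 called genes of a list, Eef1a1, Fau and Nop56 being chosen after their values were seen. Other settings tried were scaling by the 75th percentile, quantile normalization, other pseudocounts, filters and probe set rules, fits of one array set, a replicate block and each array left out. Probe sets shared with other symbols were an alternative chosen after seeing the data. The fit was checked on simulated arrays with known changes in E10.5 against E7.5. Of 100 genes changed by 1 on the log2 scale, 78 were called, and of 100 changed by 0.5, 35 were called. In each case 7 unchanged genes were called. Changes of 0.5 or less, and some of 1, can thus be missed.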

Additional observations from a re-analysis of the deposited data

How the results depend on the processing

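Counts of members are of those that rose or fell, and medians are of all tested members on the log2 scale. Shares of all genes under these settings are not given, so the counts are not read as results about the members. Under quantile normalization, E10.5 against E7.5 had 2 that rose and 11 that fell, E18.5 against E12.5 had 15 that fell and a median of -0.12, E12.5 against E10.5 had 12 and 16 and a median of -0.04, E8.5 against E7.5 had 3 and 1, E14.5 against E12.5 had 2 and 1, E18.5 against E16.5 had 2 and 10, and the F test within E12.5 to E18.5 called 17. Scaling by the 75th percentile gave 0 and 21 in E10.5 against E7.5, and 2 that rose with a median of -0.96 in E12.5 against E10.5. The falls in E10.5 against E7.5 thus numbered 7, 11 or 21 by the scaling. A pseudocount 4 times larger gave 1 that fell in E9.5 against E8.5 and 2 that rose in E18.5 against E16.5, and no filter gave 1 that fell in E9.5 against E8.5. A stricter filter tested fewer genes and gave 1 that rose in E18.5 against E12.5 and 0 in E18.5 against E16.5. The mean of all probe sets gave 0 and 12 in E10.5 against E7.5, 8 that fell in E18.5 against E12.5 and 4 in E9.5 against E8.5. Without the _x_at and _s_at probe sets, 2 rose in E10.5 against E7.5, E8.5 against E7.5 and E18.5 against E16.5, 7 rose in E12.5 against E10.5 and 5 fell in E9.5 against E8.5. Fitting one array set alone gave 2 and 1 in E8.5 against E7.5, 1 that fell in E14.5 against E12.5 and in E16.5 against E14.5, and 2 that rose in E18.5 against E16.5. With shared probe sets, E10.5 against E7.5 had 0 and 3, E18.5 against E12.5 had 1 that fell, E12.5 against E10.5 had 1 that rose, E8.5 against E7.5 had 0 and 1, E9.5 against E8.5, E10.5 against E9.5 and E18.5 against E16.5 had 1 that fell each, and the F tests called 3 within each set. The cause of these differences was not tested.

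The replicate numbers did not meet the rule for pairing, a correlation over 0.1 in every same-number pair: correlations of deviations from the stage means ran from -0.07 to 0.28 over 62 same-number pairs, 13 of them over 0.1, and from -0.21 to 0.10 over 112 others, 0 of them over 0.1. With the replicate block, 1 member in place of 0 fell in E14.5 against E12.5, and no other count moved by more than 1.5 times.

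Among called genes, quantile normalization turned the fall from E10.5 to E12.5 for Rpl10a (0.057), Rpl11 (0.10), Rpl13a (0.32), Rpl22 (0.073), Rpl37a (0.086), Rpl7 (0.008), Rplp0 (0.14), Rps10 (0.24), Rps14 (0.042), Rps28 (0.24) and Rps7 (0.21). The mean of probe sets turned Rpl41 (0.27), Rps6 (0.052) and Rps9 (0.26) there, and Rps6 (-0.041) from E7.5 to E8.5. Without _x_at and _s_at probe sets Rpl41 was at 1.87 and Rps9 at 1.28 there. Shared probe sets turned Rps27 (0.014) and Rps6 (-0.11) from E7.5 to E10.5, Rpl12 (0.15) and Rps25 (0.25) from E12.5 to E18.5, Rpl12 (-0.70), Rpl39 (-0.74) and Rps27 (-0.83) from E10.5 to E12.5, and Rps25 (0.012) from E16.5 to E18.5.

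Leaving out 1 array at a time, E10.5 against E7.5 had 6 to 7 that fell and a median of -0.24 to -0.06, and E18.5 against E12.5 had 2 to 4 that fell and a median of 0.09 to 0.21, the 2 without the first E18.5 array. E12.5 against E10.5 had 2 to 3 that rose, 29 to 37 that fell and a median of -0.73 to -0.60, the 2 without the second E10.5 array. E8.5 against E7.5 and E9.5 against E8.5 had 1 to 2 that fell, with medians of -0.04 to 0.06 and -0.11 to 0.07. E10.5 against E9.5 had 3 to 6 that fell and a median of -0.24 to -0.06. The median of E14.5 against E12.5 ran from -0.18 without the second E14.5 array to 0.28 without the first. In E16.5 against E14.5, 0 to 1 rose, and the median ran from -0.12 without the first E14.5 array to 0.38 without the second. In E18.5 against E16.5, 0 to 2 fell, and the median ran from -0.22 without the first E16.5 array to 0.20 without the second. The F tests called 43 to 47 over 8 stages, 8 to 9 within the early and 4 to 7 within the late set.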

Other observations

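Rps4l matches the naming rule and was left out because RefSeq lists it as a transcribed pseudogene. Its probe set averaged 12840 at E7.5, 6503 at E8.5, 6132 at E9.5 and 5823 at E10.5, a change of -1.15 from E7.5 to E10.5 on the log2 scale, and from E12.5 on 2397, 2021, 1471 and 1736. Rps4x, the X-linked functional gene, gave arrays that overlapped between E7.5 (36253 to 42550) and E10.5 (31381 to 42293).

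Of 16 tested growth control genes, 5 rose and 5 fell from E7.5 to E10.5, and 1 rose and 9 fell from E12.5 to E18.5. Of all genes, 34.3% rose and 23.8% fell in the first comparison, and 24% and 29.2% in the second. Myc, a transcription factor that drives ribosome production, averaged 1599 ± 383 at E7.5 and 662.3 ± 97.1 at E10.5 (SD, n = 3), a fall of 1.22 ± 0.13 (log2, SE, adjusted p = 8.8e-08). Larp1, which binds TOP messages, averaged 3229 ± 293 and 1804 ± 43 at these stages (SD, n = 3), a fall of 0.83 ± 0.07 (adjusted p = 2.4e-09). Mycl rose by 1.91 ± 0.16 (adjusted p = 2.2e-09). From E12.5 to E18.5, Mycn fell from 1768 ± 107 to 864.3 ± 100 (SD, n = 2), and Eif4ebp1, an inhibitor of cap-dependent initiation, rose by 0.93 ± 0.13 (adjusted p = 3.7e-06). Of 11 tested reference genes, 3 rose and 3 fell from E7.5 to E10.5, 5 rose and 2 fell from E12.5 to E18.5, and 0 rose and 6 fell from E10.5 to E12.5, where 26.5% of all genes rose and 21% fell.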
